A study of Sus scrofa with 12 samples.

Results

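The genes of the mitochondrial ribosomal proteins were followed in longissimus dorsi (LD), the loin muscle, of 12 Iberian pigs that differed in myoglobin (MB). They were taken as every gene whose symbol begins with MRPL (large subunit) or MRPS (small subunit) followed by a number, which gave 64 of the 25880 genes in the count tables, 40 MRPL and 24 MRPS. All 64 had enough counts to be tested, among 13373 genes tested in all. The High MB group held 6 castrated male pigs with the highest breeding values for muscle MB, and the Low MB group 6 with the lowest. Muscle MB averaged 2.48 ± 0.0657 mg/g in the former and 1.39 ± 0.147 mg/g in the latter (SD, 6 pigs each). All 12 pigs were of one closed commercial population without full siblings and were fattened outdoors on acorns and grass, and the labels name no modified allele and no agent. The groups were formed by selecting extreme animals, so their members can also differ in whatever is inherited or varies along with MB. The labels give no age, and the study's methods give 1 approximate age and weight at slaughter for all pigs. Each pig contributed 1 RNA-seq library, and the question was whether the gene set that builds the mitochondrial translation machinery was expressed differently between muscles rich and poor in MB.

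Mitochondria keep a small genome of their own that encodes core subunits of the respiratory chain, together with the ribosomal and transfer RNAs needed to translate them. The proteins of the ribosome that reads these messages are all encoded in the nucleus, made in the cytosol and imported. MRPL and MRPS proteins assemble with the mitochondrial rRNAs into the large subunit, where peptide bonds form, and the small subunit, where messages are decoded. Some have bacterial counterparts and others exist only in mitochondria. The symbols do not follow the structure in every case, since the products of MRPS30 and MRPS18A sit in the large subunit. In muscle, oxidative fibres are rich both in mitochondria and in the oxygen-binding protein MB.

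Pig RefSeq annotation of Sscrofa11.1, the build of the count tables, placed 62 of the 64 genes, on 17 chromosomes, with 8 on chromosome 3 and 7 each on chromosomes 2 and 12. The remaining 2, MRPS2 and MRPS12, had no chromosomal protein-coding entry under their symbol. Of the 62, 16 (25.8%) had a divergently transcribed neighbour whose start lay upstream within 1000 bases, compared with 8.62% of all 19560 genes placed. In windows of 250 bases around the start (220 before, 30 after), searched on both strands, the letters CCGGAAG, a core that ETS-family factors such as the GABP complex recognise, occurred in 16 members (25.8%) and in 9.53% of all genes. The letters AAGATGGCG of YY1 occurred in 3 members (4.84%) and in 1.1% of all genes. These matches describe the sequence and are no evidence of binding. No overlap between different motifs was found in the stretches printed here.

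The stretches between the starts of 5 divergent pairs are printed as examples of promoters that a mitochondrial ribosomal protein gene shares with a partner. They were chosen from all 15 such pairs, which hold the 16 genes, with their values in view. MRPL46 and MRPS11, a large and a small subunit gene, have 38 bases between their starts on chromosome 1. MRPL47 shares 22 bases with NDUFB5, a subunit of respiratory complex I, and MRPL35 shares 64 with IMMT, an organiser of the inner mitochondrial membrane. MRPS34 shares 83 bases with EME2, a partner in a DNA repair nuclease, and MRPL50 shares 79 with ZNF189, a zinc finger gene. Each line runs 5′ to 3′ on the strand of the gene named before the slash, from 30 bases inside the partner to 30 bases inside that gene, and capitals mark CCGGAAG or its reverse complement.
MRPL46/MRPS11, chr1:191321922-191322019, plus strand: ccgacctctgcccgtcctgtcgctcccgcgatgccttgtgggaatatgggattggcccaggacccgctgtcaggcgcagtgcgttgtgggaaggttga
MRPL47/NDUFB5, chr13:117656359-117656440, minus strand: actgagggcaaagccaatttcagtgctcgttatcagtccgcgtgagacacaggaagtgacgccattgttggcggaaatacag
MRPL35/IMMT, chr3:58575081-58575204, minus strand: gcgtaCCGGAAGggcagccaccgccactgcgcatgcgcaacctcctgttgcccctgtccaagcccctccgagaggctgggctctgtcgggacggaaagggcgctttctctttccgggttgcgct
MRPS34/EME2, chr3:40193965-40194107, plus strand: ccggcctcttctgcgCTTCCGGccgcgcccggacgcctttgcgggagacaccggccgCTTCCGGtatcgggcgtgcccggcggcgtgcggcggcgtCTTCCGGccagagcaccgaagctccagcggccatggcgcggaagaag
MRPL50/ZNF189, chr1:243106802-243106940, minus strand: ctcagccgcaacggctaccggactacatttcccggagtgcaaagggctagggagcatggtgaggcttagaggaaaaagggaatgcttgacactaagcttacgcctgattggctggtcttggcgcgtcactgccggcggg
The MRPS34 stretch holds the ETS letters 3 times, and the MRPL46, MRPL47 and MRPL50 stretches do not hold them. MRPS35, the small subunit gene with the lowest log2 fold change (log2 FC), has no such neighbour, and its 250-base window holds none of the letters searched.
MRPS35, chr5:46022974-46023223, minus strand: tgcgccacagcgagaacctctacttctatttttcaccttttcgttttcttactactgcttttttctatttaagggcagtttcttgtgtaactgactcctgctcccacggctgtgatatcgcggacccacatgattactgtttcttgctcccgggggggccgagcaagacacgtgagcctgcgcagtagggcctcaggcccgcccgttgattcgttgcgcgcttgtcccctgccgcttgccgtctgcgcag

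The total of gene counts lay between 38914271 and 91318334 per pig, and the mitochondrial ribosomal protein genes took 0.183% to 0.252% of them. MRPL28 had as few as 19 counts in a pig, while each of the other 63 genes had at least 305 in every pig and the highest count was 20923 for MRPL49. Libraries of High MB 4 and 6 and of Low MB 1, 5 and 6 were deep, with totals of at least 59227608, and the other 7 reached at most 40001432. High MB 2 stood apart, with a summed level of 9 skeletal muscle markers of 53952 CPM (counts scaled to a common library size) against 94531 to 152446 CPM in the other 11 pigs. Each pig was 1 replicate.

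Expression of the mitochondrial ribosomal protein genes did not differ detectably between High and Low MB muscle. None of the 64 was called at an adjusted p under 0.10 and an absolute log2 FC over 0.58, where the edgeR quasi-likelihood test called 0 of 13373 genes (0%). DESeq2 with its defaults called 29 of 14417 genes (0.201%) and none of the 64. At an unadjusted p under 0.05 edgeR listed 2 of the 64 (3.12%), MRPS35 and MRPL50, both lower in the High MB group. Among all genes tested 8.46% had such a p, 3.13% lower and 5.33% higher in the High MB group, so the share among the 64 was below that of all genes. In DESeq2 0 of the 64 had an unadjusted p under 0.05, the smallest being 0.0519.

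The fold changes were small and lay on both sides of 0. Between the High and Low MB groups, 27 of the 64 genes (42.2%) had a log2 FC above 0, against 46.9% of all genes tested. With upper-quartile scaling it was 41 of the 64 (64.1%), against 57.2% of all genes. The median log2 FC was -0.03 for the 64 (quartiles -0.08 and 0.05) and -0.02 for all genes. Without regard to sign, the median was 0.0671 for the 64 against 0.153 for all genes. It was under 0.1 in 48 of the 64 and reached at most 0.37 in MRPL28 and 0.29 in MRPS6. The 95% interval of the log2 FC lay wholly within ± 0.58, a change of 1.49-fold, in 62 of the 64 genes (96.9%), compared with 51.8% of all genes. Of the 2191 genes tested with a mean of 18.7 to 41.3 CPM, the middle range of the 64, 81.4% had such an interval. MRPS6 (-0.09 to 0.66) and MRPL28 (-0.29 to 1.03) were the exceptions. Because LD is a mixed tissue, fewer cells of a type and less RNA per cell cannot be told apart in these values.

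**Figure D1:**
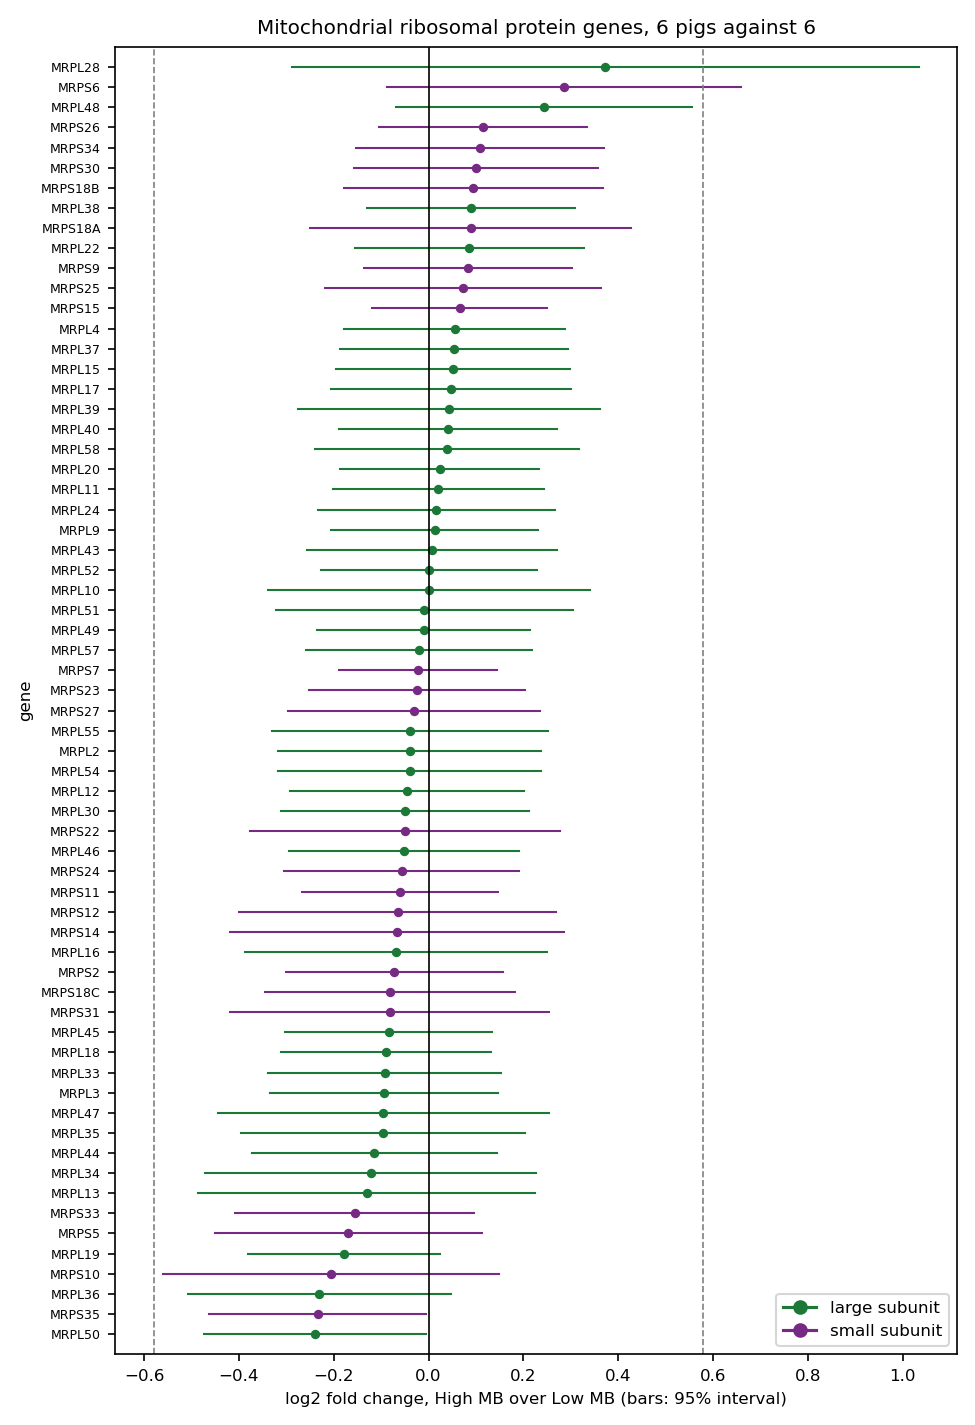
Log2 FC of the 64 genes between the 6 High MB and 6 Low MB pigs (x axis, log2 scale), 1 gene per line with its 95% interval from the edgeR fit, coloured by subunit as given in the symbol; dashed lines stand at ± 0.58. Only the intervals of MRPS6 and MRPL28 cross a dashed line, and only those of MRPS35 and MRPL50 leave out 0.

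Genes with MRPL and with MRPS symbols gave similar values. The 40 MRPL genes had a median log2 FC of -0.02, with 18 above 0, and the 24 MRPS genes a median of -0.04, with 9 above 0. The summed level of the 64 was 2169 ± 121 CPM in the High MB group (lowest 2053, median 2129, highest 2356) and 2180 ± 202 CPM in the Low MB group (lowest 1856, median 2205, highest 2397; SD, n = 6 each). The High MB values lay inside the Low MB range, and the means differed by -0.504%. With upper-quartile scaling the sums were 2020 to 2430 CPM in the High MB and 1910 to 2300 CPM in the Low MB pigs. Without High MB 2 they were 2030 to 2340 and 1820 to 2290 CPM. In both settings the High MB values reached above the Low MB range. The ratio of summed MRPL to summed MRPS level was 2.01 ± 0.0779 in the High MB and 2.04 ± 0.0739 in the Low MB pigs (SD, n = 6 each). In single pigs this ratio, taken by symbol, lay between 1.89 and 2.12.

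Differences between pigs of a group were larger than those between the groups. Low MB 6 had the lowest level of the 12 pigs in 23 of the 64 genes and lay under its own group's mean in 60 of them (93.8%), against 47.3% of all genes tested. Low MB 5 lay under the group mean in 52 of the 64, whereas Low MB 1 did so in 8 and Low MB 3 in 10. In the High MB group it was 48 for High MB 1 and 15 for High MB 5. The same Low MB 6 library had the lowest level in its group of PPARGC1A, the coactivator that drives mitochondrial biogenesis (6.09 CPM, the others 17.1 to 44.6), and of ESRRA, a nuclear receptor that works with it (102 CPM, the others 177 to 231). Of the 14 regulators of mitochondrial biogenesis tested, it was the lowest of its group for 3, the third being GABPB1 (Low MB 1 and Low MB 2 were also lowest for 3 each), while for NRF1 (7.31 CPM) and PPRC1 (19.8 CPM) it was the second highest. Its summed level of 29 nuclear complex I subunits was also the lowest of the group, at 3449 CPM against 4148 to 5106. In Low MB 5, with 52 of the 64 under the group mean, the complex I sum was 4788 CPM. The medians of the 64 per pig did not follow the groups, since Low MB 1 and Low MB 3 had the highest and Low MB 6 the lowest.

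**Figure D2:**
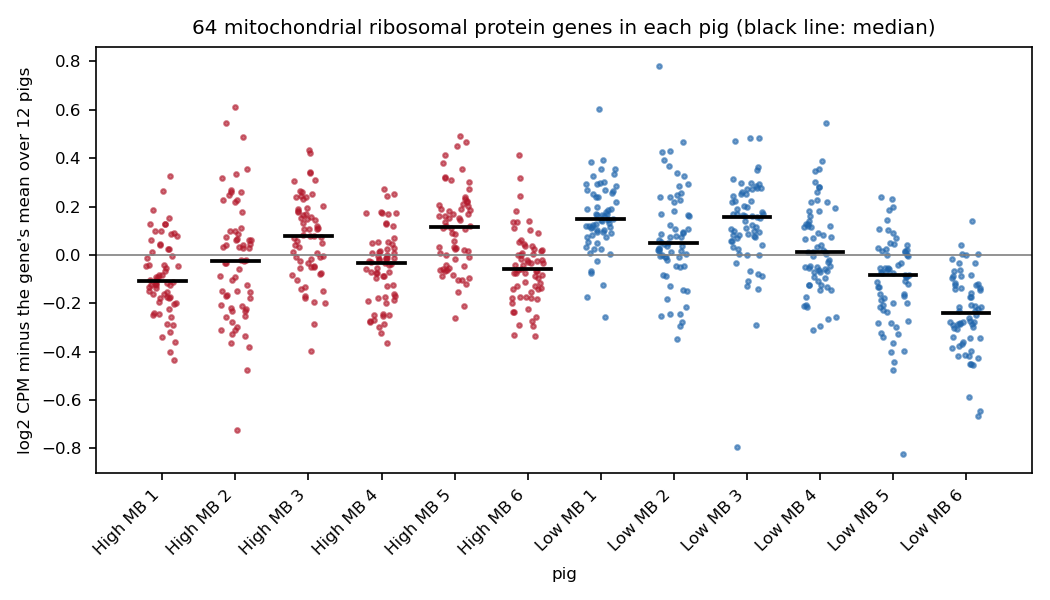
Each point is 1 of the 64 genes in 1 pig, as log2 CPM minus the mean of that gene over all 12 pigs (y axis), with pigs on the x axis, High MB in red and Low MB in blue, and the median as a black line. Medians run from -0.24 in Low MB 6 to 0.16 in Low MB 3, and those of the High MB pigs lie between.

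High MB 2 differed in another way. Its median was -0.02, near the middle, but its 64 genes were scattered more widely around the means of its group, with an SD of 0.27 on the log2 scale against 0.13 to 0.21 in the other 11 pigs. It was the lowest of the 6 High MB pigs for 22 genes and the highest for 16. The ratio of summed mitochondrial ribosomal protein to summed complex I level was 0.607 in this pig and 0.447 to 0.485 in the other High MB pigs. Its complex I sum was the lowest of its group, at 3417 CPM, and its low muscle marker sum was given above. Its TMM factor for scaling the counts was 1.21, against 0.891 to 1.03 in the other 11 pigs. The parts of the scaling and of the muscle marker level in these values were not tested.

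Within groups the 64 genes varied little. The median SD of log2 CPM within a group was 0.20 for the 64 and 0.33 for all genes tested. For the 32 of them between 18.7 and 41.3 CPM it was 0.20, against 0.23 for all genes at that level. Across pigs with deep libraries the median log2 FC was 0.05, and across the others -0.05. Of the 64, 35 had the same sign in both, beside 8404 of all 13373 genes tested. The part of depth in these differences was not tested.

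MRPS35 and MRPL50, both known only from mitochondrial ribosomes, had the lowest fold changes. MRPS35 ranged from 21.9 to 25.7 CPM (median 22.9) in the High MB and from 21.5 to 33.9 CPM (median 27.8) in the Low MB pigs. Of the Low MB pigs 4 lay above every High MB pig, while Low MB 5 and Low MB 6 lay within or under the High MB range. Its log2 FC was -0.23 ± 0.11 (SE), with an edgeR p of 0.045, an adjusted p of 0.578 and an exact permutation p of 0.0433 (two-sided). Without Low MB 2, the pig with the highest level, it was -0.15 (edgeR unadjusted p 0.151). MRPL50 ranged from 11.7 to 14.2 CPM (median 13.2) in the High MB and from 12.8 to 17.4 CPM (median 15.7) in the Low MB pigs. Here too 4 Low MB pigs lay above all High MB pigs and Low MB 5 and 6 did not. Its log2 FC was -0.24 ± 0.11 (SE), with an edgeR adjusted p of 0.578 and an exact permutation p of 0.0368.

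MRPL19, the counterpart of a bacterial large subunit protein, was the third gene with an exact permutation p under 0.05, at 0.0281. It ranged from 16.8 to 21.1 CPM (median 18.8) in the High MB and from 19.7 to 24.9 CPM (median 21.1) in the Low MB pigs, and the groups overlapped. Its log2 FC was -0.18 ± 0.09 (SE, edgeR adjusted p 0.608), and -0.12 without Low MB 4. With 3 of 64 such genes beside 9.09% of all genes tested, the share was again not above that of all genes, and none of the 64 had groups that did not overlap, a pattern found in 0.426% of all genes. Over all ways to divide the pigs into 6 and 6, the smallest p this test can give is 0.00216.

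Other genes at the low end were MRPL36 (log2 FC -0.23, and -0.13 without Low MB 3) and MRPS10 (-0.21), both counterparts of bacterial ribosomal proteins. MRPS10 was highest in High MB 2 and Low MB 4, at 22.2 CPM in each, with 11.5 to 14.6 CPM in the other High MB and 14.5 to 16.7 CPM in the other Low MB pigs. Apart from these 2 pigs the ranges touched only at their ends. Without High MB 2 its log2 FC was -0.35 (edgeR unadjusted p 0.0164), and without Low MB 4 it was -0.09 (edgeR unadjusted p 0.572).

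At the high end stood MRPL28, MRPS6, MRPL48, MRPS26 and MRPS34. MRPS6, a bacterial-type small subunit protein, ranged from 9.09 to 20.2 CPM (median 18.6) in the High MB and from 11.7 to 16.6 CPM (median 13.3) in the Low MB pigs. High MB 2 was the lowest of all 12 pigs, and 4 High MB pigs lay above every Low MB pig. The log2 FC was 0.29 ± 0.17 (SE, edgeR adjusted p 0.654), and without High MB 2 it was 0.43 (edgeR unadjusted p 0.00333). RefSeq places SLC5A3, a solute carrier gene, over 34692 bases of the MRPS6 gene, and how reads of the overlap were counted is not given in the sources used here.

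MRPL48, found only in mitochondrial ribosomes, ranged from 22.4 to 39.1 CPM (median 29.5) in the High MB and from 21.9 to 32.8 CPM (median 25.2) in the Low MB pigs. High MB 5 and High MB 6 were above all other pigs, and the groups otherwise overlapped. The log2 FC was 0.24 ± 0.15 (SE, edgeR adjusted p 0.653). Without High MB 2 it was 0.34 (edgeR unadjusted p 0.022), and without High MB 5 it was 0.16.

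MRPL28, another bacterial-type large subunit protein, was by far the lowest of the 64. Whether the gene model used for counting covers the whole gene was not tested, so its values carry that reservation. It stood at 0.732 to 1.19 CPM (median 1.08) in the High MB and 0.477 to 1.53 CPM (median 0.695) in the Low MB pigs. Low MB 2 had the highest level of all and Low MB 5 the lowest. The log2 FC of 0.37 ± 0.31 (SE, edgeR adjusted p 0.754) was 0.67 without Low MB 2 (edgeR unadjusted p 0.0292). The log2 FC of MRPS26 and MRPS34 was 0.11 in each, with intervals of -0.10 to 0.33 and -0.15 to 0.37.

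**Figure D3:**
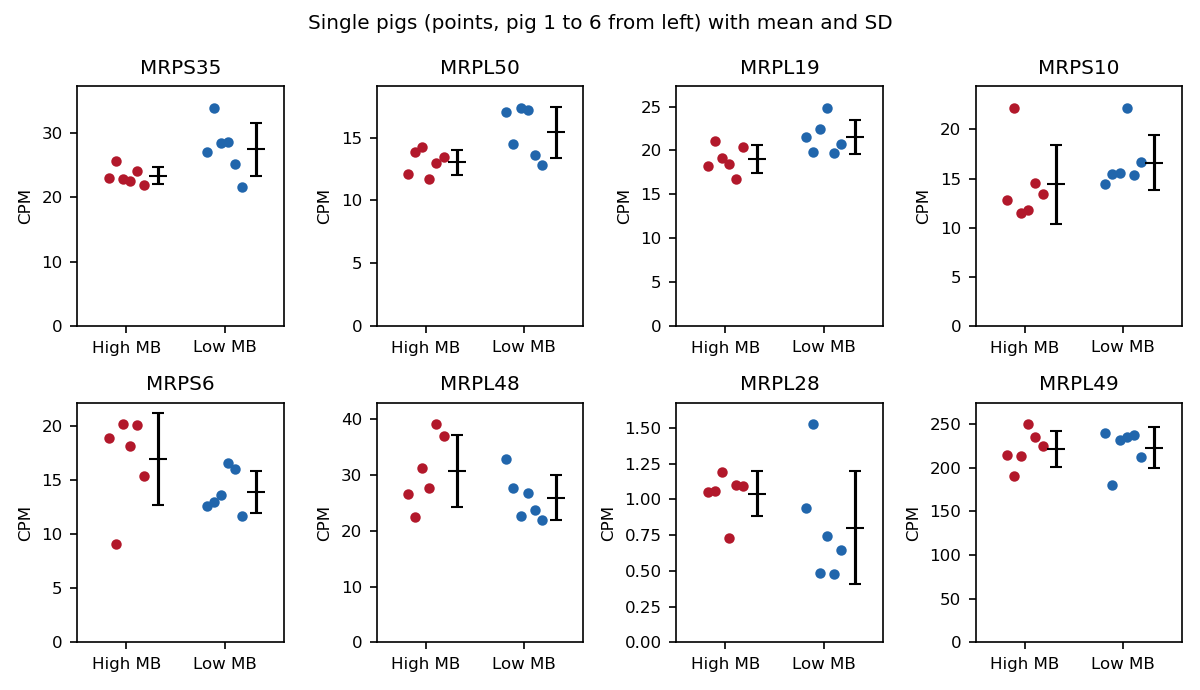
CPM (y axis, from 0) of 8 genes in the 6 High MB (red) and 6 Low MB (blue) pigs, with pigs 1 to 6 from left to right and the mean with its SD in black. In all 8 panels the points of the groups overlap; High MB 2 is the low red point of MRPS6 and the high one of MRPS10.

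For members with known roles in the ribosome the 95% intervals of the log2 FC took in 0 and lay within ± 0.58. MRPL12, which forms the stalk that binds translation factors, stood at 60.8 ± 6.92 CPM in the High MB and 62.8 ± 8.85 CPM in the Low MB pigs (SD, n = 6 each; log2 FC -0.05, interval -0.29 to 0.20). MRPL11, at the base of that stalk, had a log2 FC of 0.02 (-0.20 to 0.24). MRPS12, part of the decoding centre, gave -0.07 (-0.40 to 0.27). MRPL3 gave -0.09 (-0.33 to 0.15), and MRPL44, a relative of ribonuclease III whose defects cause heart muscle disease, gave -0.11 (-0.37 to 0.14). In the small subunit, MRPS5 gave -0.17 (-0.45 to 0.11) and MRPS22 gave -0.05 (-0.38 to 0.28). MRPS16, also bacterial in type, was not analysed here. The 3 paralogues of 1 bacterial protein, MRPS18A, MRPS18B and MRPS18C, had log2 FCs of 0.09, 0.09 and -0.08. For each of these genes the groups overlapped.

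Of the 14 partners across a divergent start that are not themselves among the 64, 11 were matched by symbol and tested, and none had an unadjusted p under 0.05 in edgeR (beside 8.46% of all genes). Their log2 FCs ran from -0.21 in TCP1, a subunit of a cytosolic chaperonin, to 0.36 in MITD1. MRPL46 and MRPS11 had log2 FCs of -0.05 and -0.06. MRPL47 gave -0.10 with NDUFB5 at 0.06, and MRPL35 gave -0.10 with IMMT at -0.05. For MRPS34 it was 0.11, with 0.33 for EME2, a gene at only 0.809 CPM. For MRPL50 and ZNF189 it was -0.24 and -0.20, and the ZNF189 interval of -0.47 to 0.06 took in 0.

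The level itself differed more between genes than between pigs. Mean CPM ran from 0.922 in MRPL28 and 9.78 in MRPS30 to 66.4 in MRPL17 and 222 in MRPL49, with a median of 26.6, and the reservation on the gene model of MRPL28 applies to the lower end. Other genes at the ends were MRPS9 (65.1 CPM), MRPL51 (62.6 CPM), MRPS31 (12.2 CPM), MRPL36 (12.4 CPM) and MRPL13 (14.0 CPM). Divided by the median length of the RefSeq transcripts, levels of the 62 genes with a length ran from 0.623 to 108 CPM per kb, with a median of 27.5 for MRPL and 18.7 for MRPS symbols. MRPL49 (108 CPM per kb), MRPL17 (81.5), MRPL51 (80.9), MRPL33 (68.4) and MRPL12 (60.3) were highest, and MRPL28, MRPS30 (2.16) and MRPS22 (4.63) were lowest.

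MRPL49 needs a reservation, as its RefSeq gene overlaps FAU and SYVN1 by up to 910 bases. FAU, which encodes a cytosolic ribosomal protein, stood at 19.6 CPM, against a median of 253 CPM over 44 other cytosolic ribosomal protein genes. SYVN1, a ubiquitin ligase of the endoplasmic reticulum, stood at 215 CPM, near MRPL49. Whether reads of one gene were counted for another was not tested. MRPL49 ranged from 191 to 250 CPM in the High MB and from 180 to 240 CPM in the Low MB pigs (log2 FC -0.01), and the summed level of the other 63 genes differed between groups by -0.48%. In all, 16 of the 62 placed genes (25.8%) overlap another gene, beside 22.2% of all genes.

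**Figure D4:**
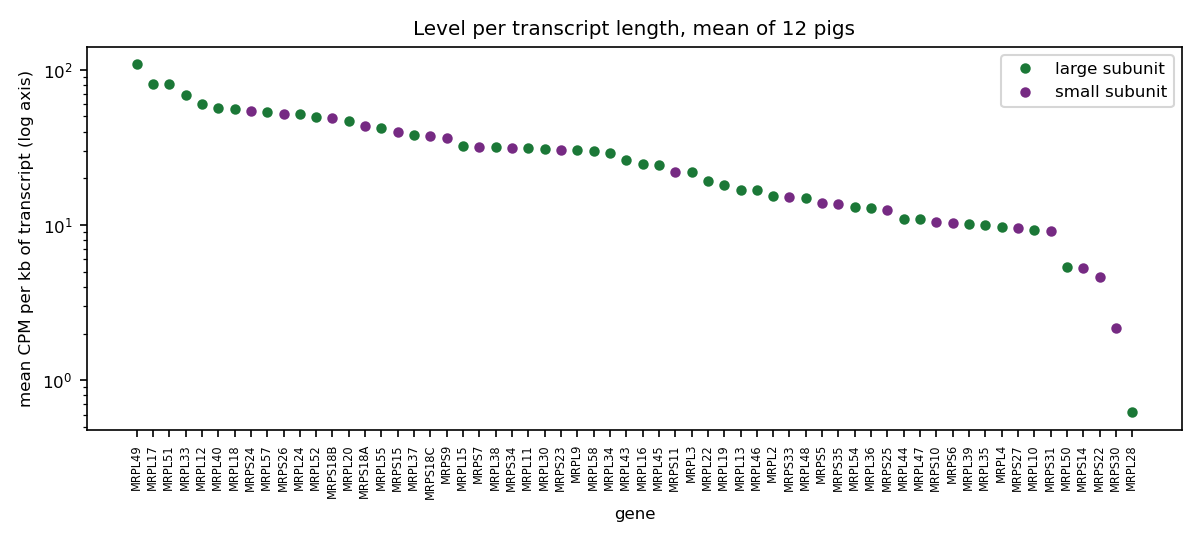
Mean level over 12 pigs per kb of transcript (y axis, log scale) for the 62 genes with a RefSeq length, ordered from highest to lowest and coloured by subunit as given in the symbol. MRPL49 stands at 108 CPM per kb and MRPL28 at 0.623, and MRPL17 follows MRPL49 at 81.5.

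The rest of the mitochondrial translation machinery gave values like those of the 64. The mitoribosome proteins with other symbols had a median log2 FC of -0.05 over 5 genes, among them DAP3, a GTP-binding small subunit protein (-0.05), and PTCD3, which binds RNA (0.07). The lowest of the 5, GADD45GIP1, a large subunit protein named here because of its value, gave -0.19 (-0.40 to 0.02), with an edgeR unadjusted p of 0.0701 and an exact permutation p of 0.0108, below that of any of the 64. Over 17 translation factors the median was -0.03, with 6 above 0, and with upper-quartile scaling it was 0.02, with 11 above 0 (all genes 46.9% and 57.2%). TUFM, the elongation factor that brings in charged tRNA, gave -0.01 (interval -0.32 to 0.29), its exchange factor TSFM 0.07 (-0.23 to 0.37) and the translocase GFM1 -0.17 (-0.54 to 0.20). Over 24 of 27 assembly and rRNA maturation factors the median was 0.01, and over 19 of 20 aminoacyl-tRNA synthetase genes it was -0.003. No gene of these 4 lists had an unadjusted p under 0.05 in edgeR. With upper-quartile scaling MRM3, an rRNA methyltransferase, and CARS2, a synthetase, both named here because of their values, had such a p (0.0436 and 0.0497). Without High MB 2 it was 3 of the 19 synthetase genes (15.8%), CARS2, FARS2 and PARS2, all higher in the High MB group. Their edgeR adjusted p was at least 0.421. Of all genes 5.8% were higher with such an unadjusted p there (10.3% either way). By the exact permutation test 3 genes of the 4 lists had a p under 0.05. They were GADD45GIP1 and the synthetase list's PARS2 (0.0325) and GATC (0.0498), and as in the members this stands beside 9.09% of all genes.

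Upstream regulators had medians under 0, and no gene of these lists was called. Of 15 genes for mitochondrial transcription and genome maintenance 4 had a log2 FC above 0 (median -0.06), beside 46.9% of all genes, and with upper-quartile scaling 7 (median -0.007), beside 57.2%. In this list were TFAM, which packages the mitochondrial genome, at -0.08 (-0.33 to 0.18) and POLRMT, its RNA polymerase, at -0.17 (-0.36 to 0.01). Of 14 biogenesis regulators 2 were above 0 (median -0.13), and with upper-quartile scaling 3 (median -0.07). NRF1, a regulator of nuclear genes for mitochondrial proteins, gave -0.10 (-0.33 to 0.14), GABPA, the ETS subunit of GABP, gave -0.15 (-0.36 to 0.06), PPARGC1A gave -0.10 (-0.79 to 0.58) and ESRRA 0.00 (-0.38 to 0.39). No gene of either list had an unadjusted p under 0.05 in edgeR, but PPARD, a nuclear receptor of fatty acid metabolism, had one without High MB 2 (0.0435, log2 FC -0.34). By the exact permutation test 1 gene of each did, POLRMT (0.013) and YY1 (0.0238), both lower in the High MB group. In deep libraries the medians of these lists were 0.03 and 0.03, and in the others -0.16 and -0.23. These are different pigs, and the part of depth was not tested.

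Respiratory chain genes, which work with the products of mitochondrial translation, had medians above 0, and few had an unadjusted p under 0.05 in edgeR. Of 29 nuclear complex I subunits 25 had a log2 FC above 0 (median 0.06) and none such a p, and of 33 subunits of complexes II to V it was 31 (median 0.13) and 2. These 2 (6.06%), ATP5ME of the ATP synthase and COX4I1 of cytochrome c oxidase, both higher in the High MB group, stand beside 5.33% of all genes higher with such a p, and the counts above 0 beside 46.9% of all genes. With upper-quartile scaling 28 of the 29 and 33 of the 33 were above 0, against 57.2% of all genes. Of the 33, 4 (12.1%) had such a p, all higher in the High MB group, beside 6.83% of all genes higher. Without High MB 2 it was 28 and 31 above 0, against 49.1% of all genes. In that setting 1 of the 29 (3.45%) and 5 of the 33 (15.2%) had such a p, all higher in the High MB group. Of all genes 5.8% were higher with such a p there. For the 44 cytosolic ribosomal proteins the median was -0.02, with 15 above 0 and 1 such p. The transcripts of the mitochondrial genome took 9.18% ± 2.01 of counts in the High MB and 7.97% ± 1.28 in the Low MB pigs (SD, n = 6 each), and the groups overlapped. No test of the difference between these lists was made.

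Markers of fibre and cell types had larger fold changes. The lists held 10 slow fibre, 11 fast fibre and 15 skeletal muscle genes, and 10 for each other type. Not all of these were matched by symbol and tested. Of 6 slow fibre markers tested 5 had an unadjusted edgeR p under 0.05, all higher in the High MB group (median log2 FC 0.54), and none had an adjusted p under 0.10. Their summed level was 6433 to 12555 CPM in the High MB and 4842 to 8404 CPM in the Low MB pigs. For all genes tested, 5.33% had an unadjusted edgeR p under 0.05 with a higher value and 3.13% with a lower value. Of 7 fast fibre markers 1, the calcium pump gene ATP2A1, had such a p, with a lower value (log2 FC -0.44; list median -0.12, sums of 25336 to 53328 and 41710 to 58358 CPM). With upper-quartile scaling no fast fibre marker had one. Without High MB 2 none had one either (ATP2A1 -0.28, edgeR unadjusted p 0.0546), and 4 of the 7 were above 0, with a median of 0.01. Higher values with such a p were found for 2 of 7 adipocyte markers (sums of 375 to 756 and 405 to 606 CPM), 1 of 8 endothelial (180 to 243 and 117 to 254 CPM), 5 of 9 myeloid (151 to 252 and 116 to 187 CPM) and 5 of 9 fibroblast markers (662 to 1162 and 346 to 855 CPM). High MB 2 was the highest of the 12 pigs for 8 of the 9 myeloid markers, such as CD163 (27.8 CPM, the next pig 10.2) and CD14 (17.6 CPM, the next 3.99). Without this pig 3 of 9 myeloid markers had such a p and their median log2 FC fell from 0.93 to 0.49, with CD14 at 0.09, while the count for the fibroblast markers was again 5 of 9. These counts stand beside 5.8% of all genes with such a p and a higher value without High MB 2. Of the 9 skeletal muscle markers TNNT1, also a slow fibre marker, was higher and ATP2A1 lower with such a p. The list median of -0.17 became -0.01 without High MB 2, where, as with upper-quartile scaling, ATP2A1 no longer had such a p. ACTA1, CKM, NEB and DES, which define muscle, were high in every pig, and no defining marker of the other types that was tested stood at 0 in a whole group. The part of these cell types in the values of the 64 genes was not tested.

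**Figure D5:**
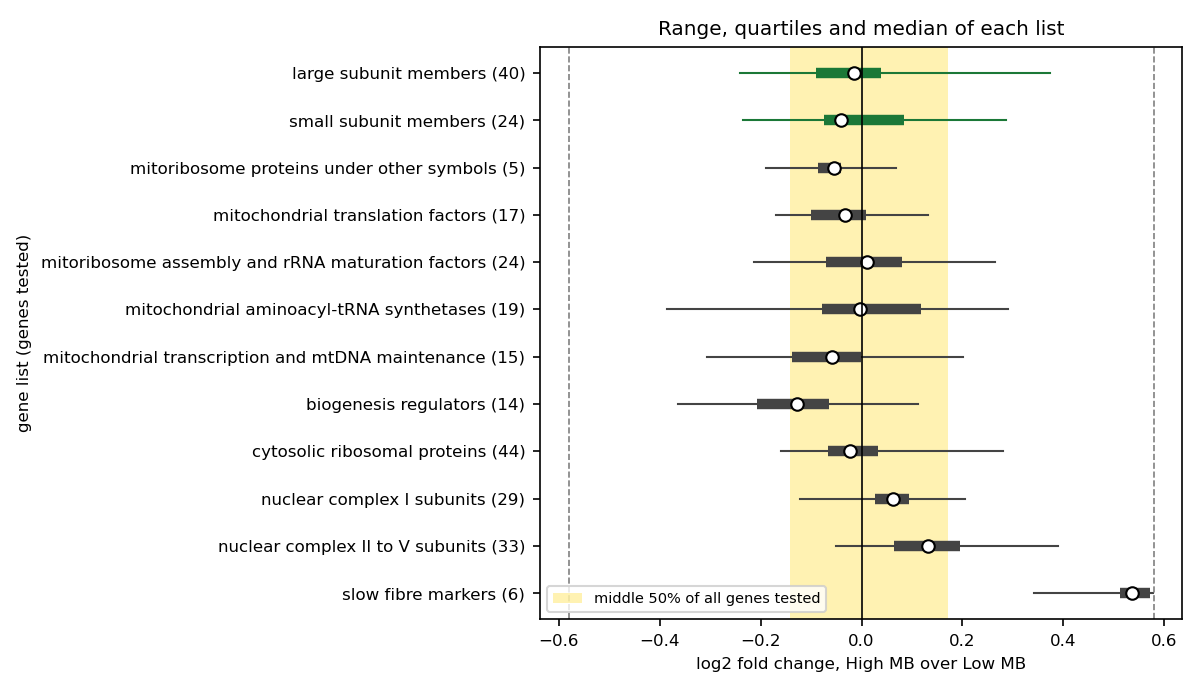
Log2 FC between High and Low MB pigs (x axis) for 12 gene lists, with the number of genes tested in brackets. Thin lines give the range, thick lines the quartiles, circles the median, the yellow band the middle 50% of all genes tested and dashed lines ± 0.58; medians of the ribosome and translation lists lie near 0, and that of the slow fibre markers at 0.54.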

How the data were processed

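LD muscle of 12 pigs was sequenced as paired reads, and the groups were read from the group label of each sample. The submitters' processing notes name FastQC, Trim Galore, HISAT2 and HTSeq on Sscrofa11.1. The authors deposited raw counts per gene, without normalization, and transcript tables that were not used. Annotation release and strand setting are not given in the sources used here. The 5 summary lines of each table were kept out of totals. Uniquely placed reads were given a gene in 47.0% to 48.2%. edgeR 4.0.16 in R 4.3.3 (TMM, filterByExpr, glmQLFit, glmQLFTest, group only) was run over all genes with Benjamini-Hochberg adjustment, and its steps were tested on simulated data. Intervals came from the test statistic. In the simulation genes varied independently and intervals were checked with a larger multiplier of the SE. The reported intervals were therefore not themselves tested. CPM used TMM, and log2 CPM a prior count of 2. DESeq2 1.42.0 was an alternative, beside other scalings, filters, depth classes, a block and single pigs left out. Exact permutation tests were two-sided.

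Named genes were those with an unadjusted p under 0.05, the 5 at each end of fold change and of level, and a list of members and regulators with known roles. Members, lists and tests were chosen with earlier results of these data known. Pigs were the replicates, and p-values measure the spread between them. One symbol of the name table, MRPS28, matched no row. Sequences are from RefSeq (Sscrofa11.1).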

Additional observations from a re-analysis of the deposited data

Results flagged for a closer look

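In 80 groups of 6 pigs (named genes and summed levels), 9 held a pig far from the other 5. The gap to the nearest pig passed Dixon's 95% critical value, which about 1 in 20 independent, unselected groups would pass. Many of these genes were named for their values in these data, and all groups draw on the same 12 pigs. The 9 can therefore not be measured against that rate. High MB 2 accounted for 4 of the 9. It was lowest for MRPS6 (9.09 CPM, the others 15.4 to 20.2) and highest for MRPS10 (22.2 CPM, the others 11.5 to 14.6), for MRPS22 (26.8 CPM, the others 15.2 to 18.4) and for the ratio of summed mitochondrial ribosomal protein to summed complex I level (0.607, the others 0.447 to 0.485). High MB 4 was lowest for MRPL28 (0.732 CPM, the others 1.05 to 1.19). In the Low MB group, pig 1 was highest for MRPS26 (62.1 CPM, the others 48.9 to 53.2) and pig 4 for MRPS10 (22.2 CPM, the others 14.5 to 16.7). Low MB 5 was lowest for PTCD3 (29.7 CPM, the others 41.8 to 51.3). Low MB 6 was lowest for ESRRA (101.5 CPM, the others 177 to 231). The causes were not tested.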

How the results depend on the processing

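No alternative called any of the 64 genes. Among all genes, 29 were called by DESeq2 and 1 in the deep libraries alone. The count of 2 of the 64 with an unadjusted p under 0.05 became 1 with RLE scaling or no filter on low counts. It became 0 with upper-quartile scaling, without the 10 genes of highest count, with at least 10 counts in every pig, in the deep libraries alone and with DESeq2. The count above 0 went from 27 to 41 with upper-quartile scaling, while the share of all genes above 0 went from 46.9% to 57.2%. The 3 genes with an exact permutation p under 0.05 became 1 with upper-quartile scaling, 2 with at least 10 counts in every pig, 4 in the standard libraries alone and 0 in the deep libraries, where 2 pigs against 3 cannot reach it. The cause of these shifts was not tested. With single pigs left out, counts ranged from 0 to 0 for genes called and 18 to 40 above 0. They ranged from 0 to 4 for an unadjusted p under 0.05 and from 0 to 7 for the exact test. Both were highest without High MB 2. In that setting the 4 were 6.25% of the 64, beside 10.3% of all genes with such a p. The exact test was not run over all genes there, so its 7 have no share to stand beside. The median log2 FC of the 64 ranged from -0.07 to 0.02, that of the other mitochondrial lists (main value -0.03) from -0.07 to 0.00, and the log2 ratio of summed CPM (main value -0.0073) from -0.05 to 0.02. Without MRPL49, an alternative chosen after seeing the data, that ratio was -0.0069. Over 38 named genes and 24 alternatives, 19 genes kept their sign throughout. The counts of marker, respiratory chain and other mitochondrial genes without High MB 2 and with upper-quartile scaling, given above, were also chosen after seeing the data. So were the summed levels of the 64 in these settings. Same-numbered pigs of the groups were not paired, since correlations of their deviations ran from -0.212 to 0.144 and 1 of 6 was over 0.1. With the number as a replicate block, 0 of the 64 had an unadjusted p under 0.05. MRPL28 had as few as 19 counts in a pig, against at least 305 for the other 63 genes.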
